A study of Mus musculus with 2 samples.

Results

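Of 9 SOX transcription factor genes chosen by name (Sox2, Sox3, Sox4, Sox5, Sox6, Sox8, Sox9, Sox11 and Sox21), 4 were measured in the 10666 genes of the expression table of mouse cortical neurospheres: Sox5, Sox6, Sox8 and Sox9. Neurospheres are free-floating balls grown from neural stem cells and their progeny. Both cultures, labelled as replicates, were grown from dorsal telencephalon of wild-type C57BL/6 mice taken at embryonic day 14.5, with the growth factors EGF and bFGF at 10 ng/ml each. Culture 1 has 5748 cells and culture 2 has 7057, and there is no second condition, so cells were not used as replicates and no p-value is given. Whether the cultures came from separate litters or pooled embryos is not given in the sources used here. Each measure was read in each culture alone: the deposited level, the share of cells in which a gene was detected, the level along the cell-cycle position, and the correlation over cells with other genes.

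The total of unique molecular identifiers (UMIs, which count captured transcripts) had a median of 19477 per cell in culture 1 and 14637 in culture 2, and the median number of genes was 3445 and 2833. The libraries shared 48 cell barcodes. Radial glia markers were widespread, with Fabp7 in 100% and 99.96% of cells and Nes in 93.3% and 89.8%, and so was the oligodendrocyte lineage factor Olig2, in 97.3% and 91.9%. None of 5 microglial, 4 endothelial, 5 mural and fibroblast or 3 erythroid markers has a row in the table. It therefore gives no cell type that should lack a SOX gene, and the share of cells with a SOX UMI from free RNA could not be read from one.

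SOX proteins bind the minor groove of DNA through an HMG box and bend it, and they fall into subfamilies by the sequence of that box. Sox2 and Sox3 (SoxB1) keep neural progenitors undifferentiated, Sox21 (SoxB2) counteracts them, and Sox4 and Sox11 (SoxC) act in young neurons. Sox5 and Sox6 (SoxD) carry no activation domain of their own and work with partner factors, while Sox8 and Sox9 (SoxE) act in neural stem cells and in the astrocyte and oligodendrocyte lineages.

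Presence in the table went with the number of exons. Sox2, Sox3, Sox4, Sox11 and Sox21 are each annotated in GENCODE vM21 (GRCm38) with a single exon, and none has a row. Sox1, also with a single exon, has none either, so 0 of 6 single-exon SOX genes were in the table against 6 of 13 with several exons. Over all protein-coding genes the shares were 2 of 1331 with a single exon (0.15%) and 10128 of 20620 with several (49.1%). The 5 members without a row were not analysed here, and their absence says nothing of whether these cells express them. Rows that overlap them belong to other genes and were not read in their place: the long non-coding RNA Sox2ot was detected in 2.70% and 1.3% of cells in cultures 1 and 2, and Gm4675, which overlaps Sox21, in 8.61% and 7.01%.

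The measured members are Sox5 (ENSMUSG00000041540, chr6:143828425-144781977, minus strand), Sox6 (ENSMUSG00000051910, chr7:115470872-116038796, minus), Sox8 (ENSMUSG00000024176, chr17:25565892-25570686, minus) and Sox9 (ENSMUSG00000000567, chr11:112782224-112787760, plus). The first 60 coding bases of the HMG box show how close the genes of a subfamily are. They are given 5′ to 3′ from the GENCODE vM21 transcripts, with those of Sox13 and Sox10, the other SOX genes with a row. Capitals mark bases that differ from Sox5 in the SoxD genes and from Sox9 in the SoxE genes.
Sox5: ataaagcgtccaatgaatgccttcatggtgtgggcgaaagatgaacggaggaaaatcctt
Sox6: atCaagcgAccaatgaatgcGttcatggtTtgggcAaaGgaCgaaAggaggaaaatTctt
Sox13: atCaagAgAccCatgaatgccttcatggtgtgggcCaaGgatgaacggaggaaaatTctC
Sox9: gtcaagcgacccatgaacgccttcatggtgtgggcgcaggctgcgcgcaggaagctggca
Sox8: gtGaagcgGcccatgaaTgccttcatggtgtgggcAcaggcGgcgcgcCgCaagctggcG
Sox10: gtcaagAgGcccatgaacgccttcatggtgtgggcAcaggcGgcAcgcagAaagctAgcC

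These stretches lie in exon 13 of Sox5 (chr6:143841220-143841279), exon 14 of Sox6 (chr7:115489709-115489768), exon 12 of Sox13 (chr1:133385512-133385571), exon 1 of Sox9 (chr11:112782897-112782956), exon 1 of Sox8 (chr17:25570169-25570228) and exon 3 of Sox10 (chr15:79163348-79163407). Over the 207 coding bases of the whole box, Sox5 and Sox6 were 82.6% identical and Sox8 and Sox9 86.0%. Pairs of Sox5 or Sox6 with Sox8 or Sox9 were 52.7% to 60.9% identical. This range does not cover other SOX genes, and Sox9 and Sox13 were 62.3% identical. The longest run of bases shared exactly by transcripts of any pair of measured members was 23.

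The deposited values turned out to be UMIs in steps. Within a culture, the values of a member divided by a factor for each cell fell on whole multiples of a single step, the worth of 1 UMI. Between 81.2% and 95.1% of the nonzero values of Sox5, Sox6, Sox8 and Sox9 lay within 0.1 of a whole number of steps. The step of each gene and culture was itself chosen to make such a share high, with a small offset fitted. The share is therefore no independent test of the steps. Sox8 differed from the others in that 13.5% of its nonzero values in culture 1 and 15.1% in culture 2 were nearest to 0.5 of a step. For the other members this was so for at most 2.52%. The cause of these broken steps was not tested.

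The size of the step differed between the cultures by gene. For Sox9 it was 1.29 in culture 1 and 2.86 in culture 2, a ratio of 2.21. The ratio was 1.98 for Sox6, 1.21 for Sox8 and 1.06 for Sox5. Over 3984 genes detected in a low share of cells in both cultures, lower than that of each member in culture 1, the median ratio was 1.0. The 5th and 95th percentiles of these genes were 0.679 and 1.44, and the ratios of Sox9 and Sox6 were above them. For these genes the ratio was taken on the median nonzero value over the cell factor. No step was fitted to them, so the measures are not the same. In cells with the same cell factor, the same deposited value of Sox9 therefore stands for about 2.21 times as many UMIs in culture 1 as in culture 2. Levels were for this reason compared between cultures on the recovered UMIs and on detection, not on the deposited scale.

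**Figure D1:**
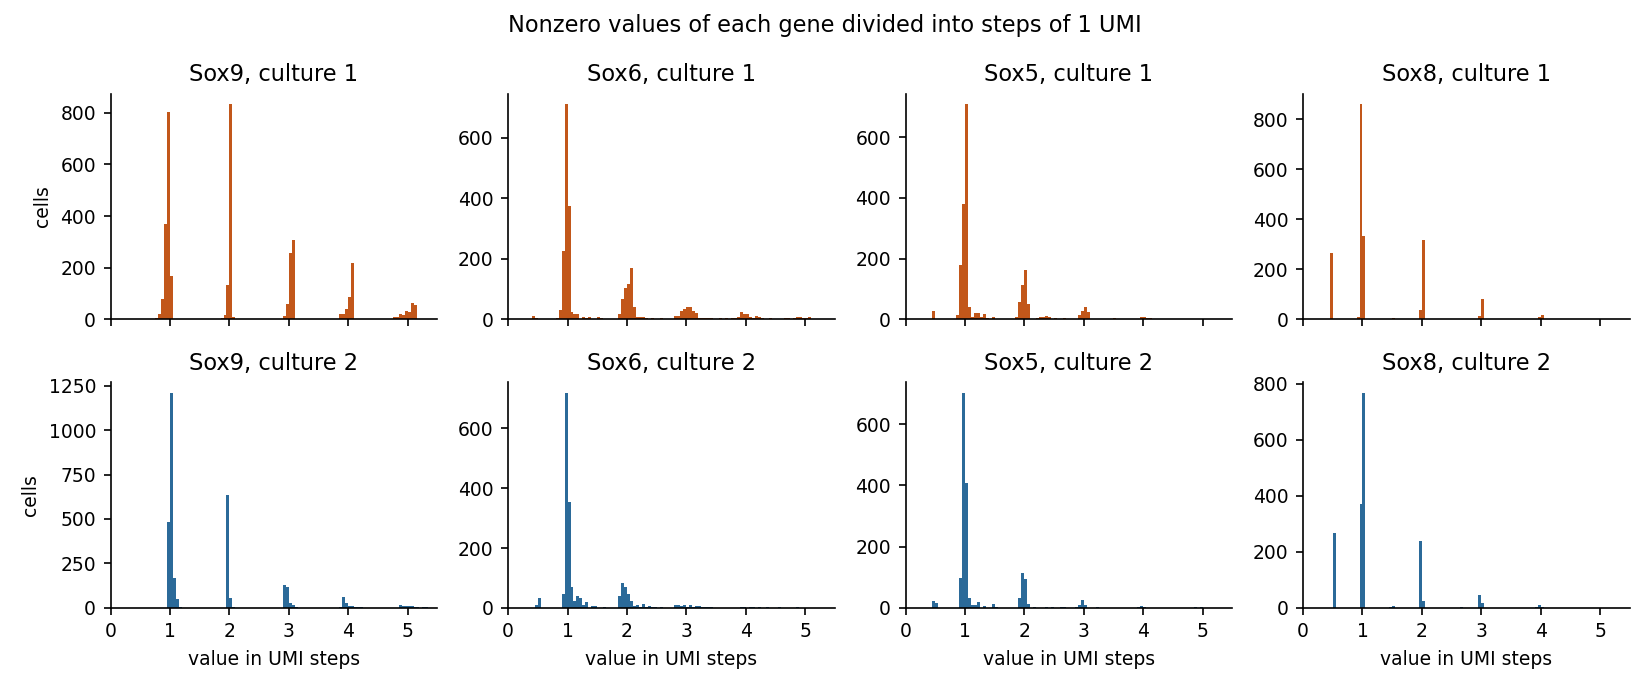
Histograms of the nonzero values of Sox9, Sox6, Sox5 and Sox8 in each culture, with the value in steps of 1 UMI on the x axis (values up to 5.5 steps) and the number of cells on the y axis. The values gather at whole numbers, and for Sox8 also at 0.5.

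Sox9, which maintains neural stem cells and is needed for them to make glia, was higher in culture 1. Its mean deposited value was 1.61 in culture 1 and 1.48 in culture 2, a ratio of 1.09. In recovered UMIs its level was 1.07 per 10,000 total UMIs in culture 1 (exact 95% Poisson interval 1.06 to 1.09) and 0.509 in culture 2 (0.496 to 0.522), a ratio of 2.11. All intervals here cover counting error only. It was detected in 74.3% of cells in culture 1 (exact 95% binomial interval 73.2% to 75.4%) and in 45.0% in culture 2 (43.9% to 46.2%).

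Sox6, a SoxD factor of dorsal progenitors and oligodendrocyte precursors, differed in the same direction. Its mean deposited value was 0.633 in culture 1 and 0.539 in culture 2, and its level in UMIs was 0.382 per 10,000 (0.371 to 0.393) and 0.215 (0.206 to 0.224), a ratio of 1.78. It was detected in 43.3% of cells (42.0% to 44.6%) and 25.3% (24.3% to 26.3%).

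Sox5, its SoxD relative, which controls the timing of deep-layer neurons, differed less. Its mean deposited value was 0.434 in culture 1 and 0.370 in culture 2, its level 0.241 UMIs per 10,000 (0.232 to 0.25) and 0.189 (0.181 to 0.198), and it was detected in 35.2% (34.0% to 36.5%) and 23.7% (22.7% to 24.7%) of cells.

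Sox8, a SoxE factor that shares roles with Sox9 and Sox10 in oligodendrocyte development, had the smallest ratio between cultures over all cells. Its mean deposited value was 0.400 in culture 1 and 0.397 in culture 2, and its level 0.209 UMIs per 10,000 (0.201 to 0.218) and 0.189 (0.181 to 0.197), with detection in 34.0% (32.8% to 35.3%) and 25% (24.0% to 26.0%) of cells. For all 4 members culture 1 was the higher by UMIs and by detection, and the counting intervals did not overlap. By detection over all cells the same held for 71.2% of the 10666 genes, so this direction is not particular to the members. Levels were not ranked between genes, since 3′ UMIs depend on how well each gene's end is captured.

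Cells of culture 1 had more total UMIs, so detection was also compared at a fixed depth. Among cells with 14000 to 18000 total UMIs (1249 in culture 1 and 2435 in culture 2), Sox9 was detected in 67.9% of cells in culture 1 and 44.0% in culture 2, Sox6 in 37.8% and 25.5%, Sox5 in 29.2% and 23.9%, and Sox8 in 30.1% and 23.1%. With each cell thinned to 8000 total UMIs, which leaves out 88 and 205 shallower cells, the shares were 49.2% and 28.8% for Sox9, 24.3% and 14.3% for Sox6, 17.1% and 13.3% for Sox5, and 15.7% and 13.7% for Sox8. The order of the cultures was the same in each comparison. In the depth window the intervals of the shares were apart for all 4 members, and with culture 1 the higher they were apart for 29.2% of the 10666 genes. The ratio of levels in UMIs within the depth window was 2.54 for Sox9, 2.0 for Sox6, 1.41 for Sox8 and 1.29 for Sox5, so that at matched depth Sox5 and not Sox8 was the closest.

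Other genes show how unusual such a difference is between these cultures. The fold implied by detection within the depth window was at least 1.5 in favour of culture 1 for 14.4% of 9521 genes, and for 2 of the 4 members, Sox9 (1.96) and Sox6 (1.61). Sox8 (1.36) and Sox5 (1.26) were below it, and the median gene was at 1.10. A higher fold was seen in 3.78% of genes for Sox9 and in 9.82% for Sox6.

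**Figure D2:**
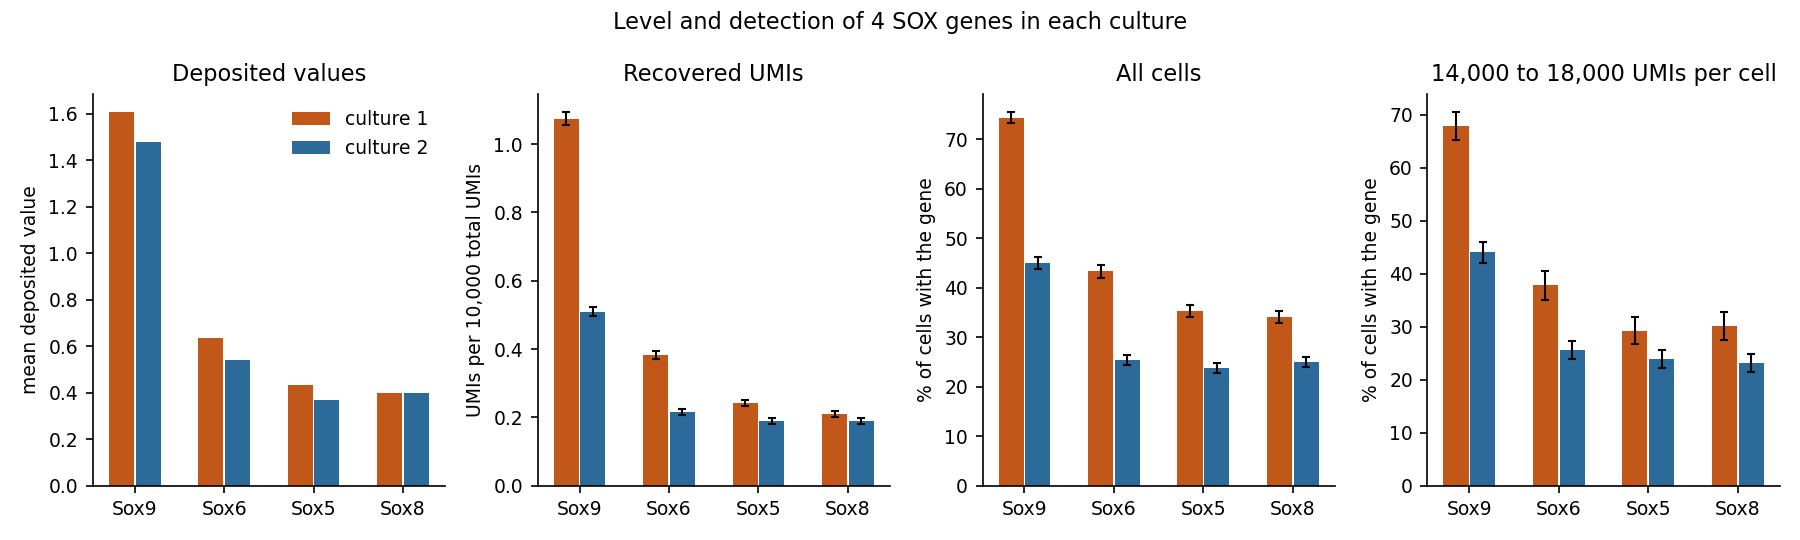
Bars show, for Sox9, Sox6, Sox5 and Sox8 in culture 1 (orange) and culture 2 (blue), the mean deposited value, the UMIs per 10,000 total UMIs, and the share of cells with the gene over all cells and over cells with 14,000 to 18,000 total UMIs. Error bars are exact 95% intervals for counting error, and the cultures are close in deposited values and apart in UMIs, most of all for Sox9 (1.07 and 0.509).

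The other SOX genes with a row were rare. Sox13, of the SoxD subfamily, was detected in 3.84% of cells in culture 1 and 2.34% in culture 2. Sox10, the SoxE factor that drives the oligodendrocyte fate, was detected in 4.26% and 0.751%, while its mean deposited value went the other way, 0.0482 in culture 1 and 0.0896 in culture 2. Its 53 nonzero values in culture 2 reach 265, and only 28.3% of them lay within 0.1 of a whole step, so no UMI level is given for it.

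The spread over cells was set beside that of a culture in which every cell holds the gene at one rate per total UMI. For Sox9, 14.7% of cells in culture 1 and 46.6% in culture 2 would then have shown none, where 25.7% and 55.0% did. For Sox6 these shares were 47.6% and 71.9% at one rate and 56.7% and 74.7% as seen. For Sox8 they were 65.9% and 74.7% at one rate and 66.0% and 75% as seen. Cells with at least 4 UMIs gave another order. Sox6 had 4.02% of such cells in culture 1 and 0.468% in culture 2, where one rate would give 1.45% and 0.0736%. Sox8 had 0.626% and 0.269%, where one rate would give 0.214% and 0.0466%. Sox9 had 20.7% and 3.91%, where one rate would give 20.01% and 1.33%. For Sox5 the shares with none were 62.0% and 74.7% at one rate and 64.8% and 76.3% as seen. As counted here, the zeros of Sox8 were near one rate but its high counts were not, and the reverse held for Sox9 in culture 1. The nearness for Sox8 is not settled. A cell at 0.5 of a step counts as detected but adds only 0.5 UMI to the rate, which raises the share of zeros given by one rate. The highest counts in a single cell were 27.5 UMIs for Sox9, 14 for Sox6 and 7 for Sox5 and Sox8.

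The cell-cycle position of each cell, deposited by the authors as an angle from 0 to 2π that passes through G1/S, S, G2 and M as it rises, explained little of any member. A fit of 2 harmonics of the position to log2(value + 1) was called where R² came to 0.05 or more in each culture alone. This was so for 4.01% of the 10666 genes and for 0 of the 4 members. The lower R² of the cultures was 0.0120 for Sox6, 0.00230 for Sox5, 0.00203 for Sox8 and 0.000736 for Sox9, where the median gene had 0.00183. A higher value was found in 12.9% of genes for Sox6 and in 76.1% for Sox9. Since most nonzero values of Sox5, Sox6 and Sox8 are a single UMI, a low R² limits only what can be seen at this depth.

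Averages over many cells showed smaller movements. Sox6 was highest below 0.5π and lowest at 1.25π to 1.5π in both cultures. In culture 1 its level went from 0.473 UMIs per 10,000 (0.436 to 0.513) at 0 to 0.25π to 0.179 (0.111 to 0.272) at 1.25π to 1.5π. In culture 2 it went from 0.282 (0.243 to 0.326) at 0.25π to 0.5π to 0.111 (0.0799 to 0.151) at 1.25π to 1.5π. The span between these bins was 2.65-fold in culture 1 and 2.54-fold in culture 2. The bins from 1.25π to 1.5π held 85 and 279 cells, with median depths of 14111 and 11882 total UMIs.

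Sox5 had a comparable span in culture 2, from 0.231 UMIs per 10,000 (0.206 to 0.259) at 0 to 0.25π to 0.0824 (0.0513 to 0.125) at 1.5π to 1.75π. In culture 1 its extremes, 0.269 (0.241 to 0.299) and 0.203 (0.123 to 0.315) in the same bins, had overlapping intervals.

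Sox8 had its highest bin at 1.25π to 1.5π in both cultures, at 0.295 UMIs per 10,000 (0.206 to 0.409) in culture 1 and 0.283 (0.231 to 0.342) in culture 2. At 0.5π to 0.75π it was at 0.170 (0.15 to 0.192) and 0.154 (0.129 to 0.183). These intervals were apart in each culture. In culture 1, however, the lowest bin was the one next to the highest, at 0.161 (0.0912 to 0.264) in 64 cells at 1.5π to 1.75π. A smoothed curve of culture 1 also had its maximum elsewhere under some settings, at 0.04π with a loess span of 0.1 and at 0.14π with 2 harmonics, so the place of the Sox8 maximum is not settled there.

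Sox9 had its lowest bin at 0.75π to 1π in both cultures, at 0.862 UMIs per 10,000 (0.825 to 0.901) and 0.466 (0.424 to 0.510). Its highest bin was 1.43 (1.22 to 1.66) at 1.25π to 1.5π in culture 1, and 0.580 (0.523 to 0.641) at 0.25π to 0.5π in culture 2, so the maximum was not shared. By the stages of the SchwabeCC method, Sox9 was likewise lowest in S, at 0.90 and 0.426 UMIs per 10,000, and stood at 1.25 and 0.523 in G2.M. By the cyclone stages it was lowest in S in culture 1 (0.904) but in G2M in culture 2 (0.477). The bins were read after the values were seen, and the intervals treat cells of a culture as independent.

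**Figure D3:**
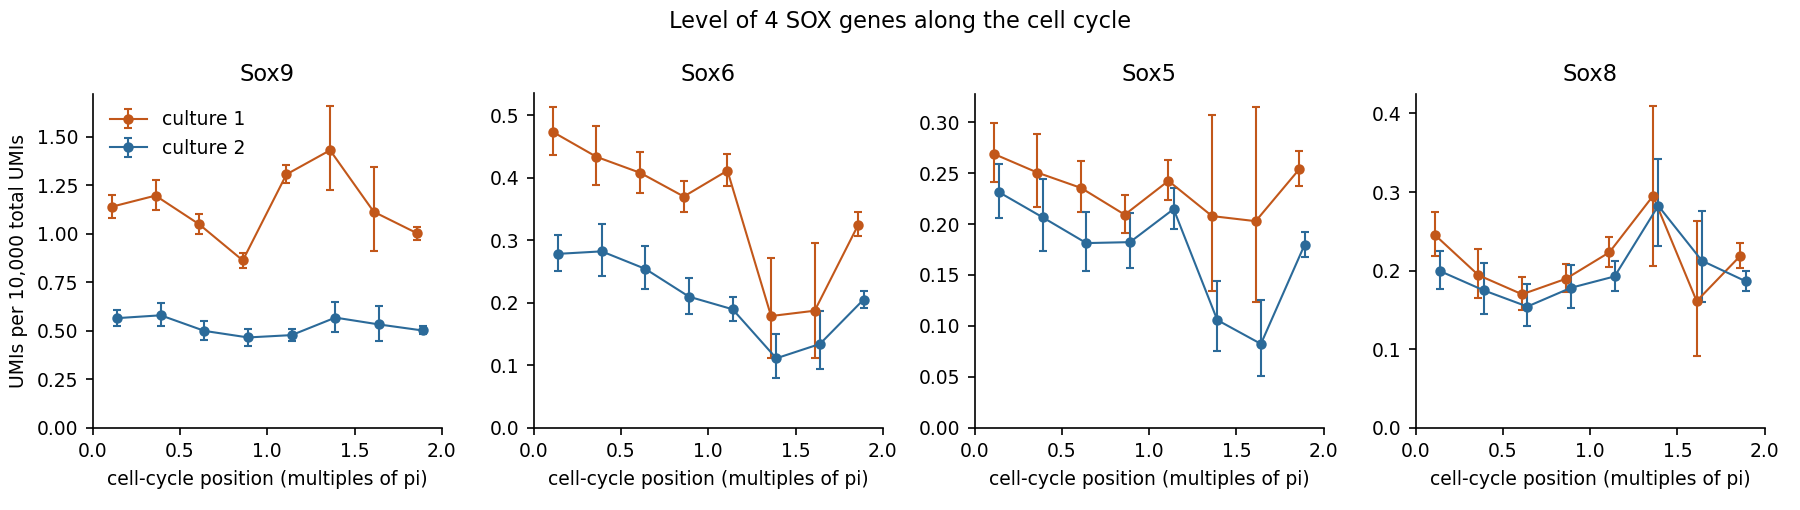
UMIs per 10,000 total UMIs of Sox9, Sox6, Sox5 and Sox8 in bins of 0.25π of the cell-cycle position, in culture 1 (orange) and culture 2 (blue), with exact 95% Poisson intervals as error bars. Sox6 is lowest at 1.25π to 1.5π in both cultures and Sox8 has its highest bin there, next to its lowest in culture 1, while Sox9 of culture 1 lies above that of culture 2 in all bins.

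Members were detected together about as often as their separate shares would give. In the depth window, Sox6 and Sox9 were both found in 27.5% of cells in culture 1 (25.1% to 30.1%), where the product of their shares is 25.7%, and in 11.2% in culture 2 (9.95% to 12.5%), where it is 11.2%. Over the 6 pairs and both cultures the ratio of seen to product ran from 0.837 (Sox5 and Sox8 in culture 1) to 1.07 (Sox6 and Sox9 in culture 1). All 4 members were detected in 2.4% of the window's cells in culture 1 and 0.698% in culture 2, and none of them in 10.9% and 24.2%.

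Levels over cells were then correlated, after removal of total UMIs and cell-cycle position. All correlations are over the 5748 and 7057 cells, which share a library and are not replicates. None of the 6 pairs reached an r of 0.1 in both cultures. Sox6 and Sox9 came nearest, at 0.214 in culture 1 and 0.0935 in culture 2, so that culture 1 alone would call the pair. The next pair, Sox6 and Sox8, was at 0.0904 and 0.0307, and Sox5 with Sox6, the SoxD relatives, at 0.0325 and 0.0183.

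The same threshold gives the background for each member. Of the other 10665 genes, an r of at least 0.1 in both cultures was reached with Sox9 by 18 (0.169%), with Sox6 by 14 (0.131%), and with Sox5 and Sox8 by 0 (0% for each). An r of -0.1 or lower in both was reached with Sox9 by 9 genes (0.0844%), with Sox6 by 3 (0.0281%), and with Sox5 and Sox8 by 0 (0% for each). Sox9 and Sox6 shared 12 of the positive genes, which is 66.7% of the Sox9 genes and 85.7% of the Sox6 genes.

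The genes most like each member were named by the highest lower r of the cultures among genes detected in at least 5% of cells in each. For Sox6 they were Lhfpl3, a membrane protein typical of oligodendrocyte precursors (0.344 in culture 1 and 0.153 in culture 2), the calcium sensor Ncald (0.350 and 0.146) and the endocytic protein Sh3gl3 (0.321 and 0.124). For Sox9 they were again Lhfpl3 (0.274 and 0.163), the adhesion molecule Cntn1 (0.273 and 0.162) and the glucuronyltransferase B3gat2 (0.228 and 0.153). For Sox5 they were the growth factor Ptn (0.0835 and 0.0683), the channel subunit Kcnmb4 (0.0641 and 0.0601) and the lipid transfer protein Pitpnc1 (0.0494 and 0.0474). For Sox8 they were the elongation factor Eef1a1 (0.0808 and 0.0689), Ncald (0.111 and 0.0685) and the transcription factor Tcf12 (0.0724 and 0.0625). The values for Sox5 and Sox8 are too weak in such sparse counts to be read as a likeness. The gene furthest below 0 with Sox6, Igfbp2, which binds insulin-like growth factors, was at -0.406 and -0.143, and that with Sox9, the galectin Lgals1, at -0.248 and -0.175. These last genes were chosen after their values were seen.

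Markers of cell types were called with Sox6 and Sox9 and not with Sox5 and Sox8, a difference that was not tested. Of 7 oligodendrocyte progenitor markers in the table (of 9 listed), 4 were called with Sox6: Pdgfra, the growth factor receptor of these cells (0.20 and 0.118), the fate factor Sox10 (0.231 and 0.111), the cadherin Pcdh15 (0.174 and 0.114) and Lhfpl3. With Sox9, 3 of 7 were called: Pdgfra (0.236 and 0.145), Pcdh15 (0.163 and 0.106) and Lhfpl3. Apart from Lhfpl3 (24.5%), the called markers were rare in culture 2, with Pdgfra in 1.81% of cells, Pcdh15 in 1.37% and Sox10 in 0.751%. These shares are below the 5% asked of the genes named as most like a member. Of the 53 nonzero Sox10 values in culture 2, only 28.3% lay within 0.1 of a whole step, so its r there is weakly founded. Not every marker followed. With Sox9, Sox10 was at 0.0231 and 0.0891, and Bcas1, a protein of maturing oligodendrocytes, was at -0.0242 and 0.0310. The median r of the list was 0.20 and 0.111 with Sox6 and 0.163 and 0.0891 with Sox9, where over all genes it was 0.00339 and 0.000520 with Sox6 and 0.00133 and 0.00100 with Sox9. With Sox5 and Sox8, 0 of 7 were called, and the medians were 0.0129 and 0.0109 for Sox5 and 0.0498 and 0.0258 for Sox8.

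None of 8 radial glia markers in the table (of 10 listed) was called with any member, and the median r with Sox6 was -0.130 in culture 1 and -0.000431 in culture 2. The glutamate transporter Slc1a3 was lowest with Sox6, at -0.337 and -0.0958, and Ptprz1 was highest, at 0.105 and 0.0687. Of 5 astroglial markers in the table (of 8 listed), 0 were called with any member. Their median r with Sox6 was -0.144 and -0.0255, the values of the gap junction protein Gja1, but the calcium-binding protein S100b was at 0.160 and 0.0143. Of 3 neuronal markers in the table (of 12 listed), the microtubule protein Dcx was called with Sox9 (0.163 and 0.123) and was at 0.209 and 0.0969 with Sox6. Dcx was detected in only 1.56% of cells in culture 2. Gad1, the enzyme that makes the transmitter GABA, was at 0.0160 and 0.00119 with Sox9 and at 0.00232 and 0.00410 with Sox6.

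Of 30 genes listed as partners and targets of SOX factors, 20 have a row. With Sox9, 1 of the 20 was called: Tead2, a factor of the Hippo pathway, at -0.169 and -0.105. With Sox5, Sox6 and Sox8, 0 of the 20 were called. The POU partner Pou3f3 was at 0.0763 and 0.0487 with Sox9, the remodeller Chd7 at 0.139 and 0.0430 with Sox6, and the Notch target Hes1 at -0.121 and -0.0444 with Sox6. The list's median r lay between -0.0130 and 0.0101 for every member and culture.

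**Figure D4:**
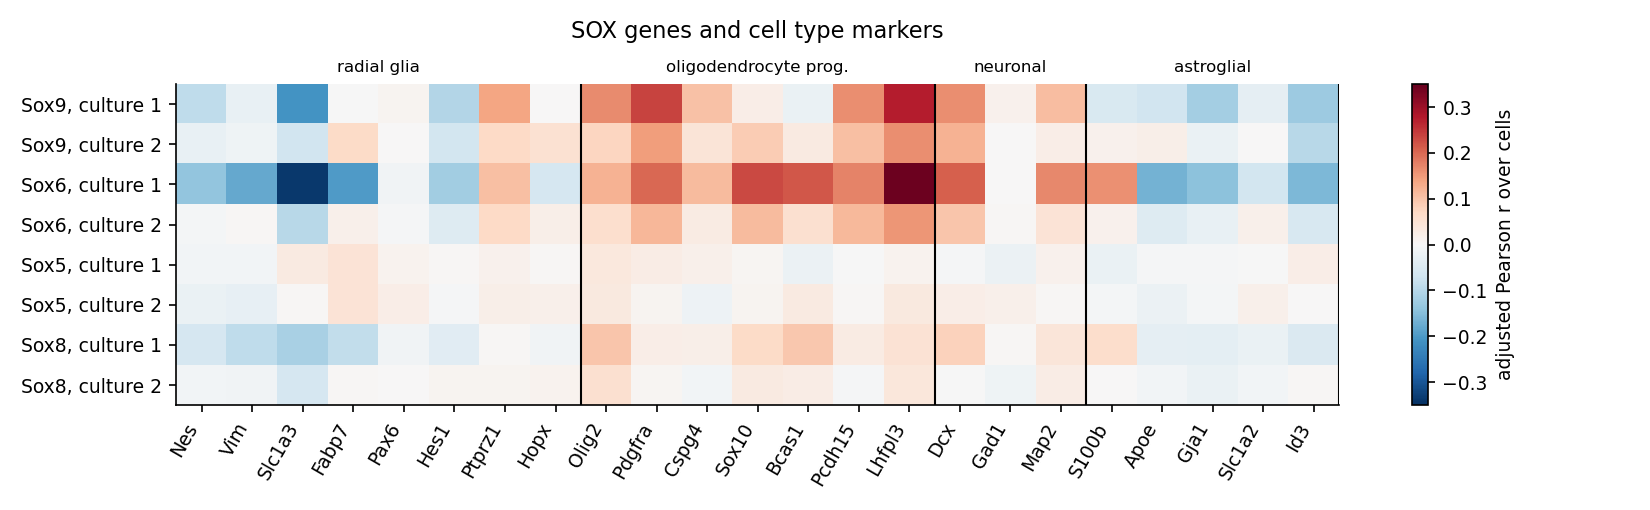
Colours give the adjusted Pearson r over cells between Sox9, Sox6, Sox5 and Sox8 (rows, each culture apart) and 23 cell type markers (columns, by list). Sox9 and Sox6 are red with Pdgfra, Pcdh15 and Lhfpl3 in both cultures, more strongly in culture 1, and the rows of Sox5 and Sox8 are pale.

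The same was seen in recovered UMIs at a fixed depth. These are part of the same cells with the same markers, so this is no separate support. Olig2 was detected in 96.6% of these cells in culture 1 and 93.0% in culture 2, so 1 marker mostly meant Olig2. Among cells of 14000 to 18000 total UMIs in culture 1, the level of Sox9 was 0.851 UMIs per 10,000 (0.795 to 0.910) in 615 cells with 1 oligodendrocyte progenitor marker detected. It was 1.11 (1.03 to 1.19) with 2, 1.81 (1.64 to 2.0) with 3 and 2.61 (2.28 to 2.96) in 57 cells with 4. In culture 2 the steps were smaller, from 0.407 (0.382 to 0.433) with 1 marker to 0.745 (0.629 to 0.877) in 122 cells with 3.

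Sox6 followed the same order, from 0.219 UMIs per 10,000 (0.191 to 0.25) with 1 marker to 0.934 (0.745 to 1.16) with 4 in culture 1, and from 0.183 (0.166 to 0.20) with 1 to 0.377 (0.295 to 0.474) with 3 in culture 2. Sox5 stayed between 0.185 and 0.255 in culture 1 and between 0.180 and 0.203 in culture 2, with overlapping intervals. Sox8 lay between 0.218 and 0.287 in culture 1 over the same cells.

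Taken singly, some of the oligodendrocyte progenitor markers went with more Sox6 and Sox9 and others did not. In culture 1, the level with the marker was above that without, with intervals apart, for 6 of 7 markers for Sox6, 5 for Sox9, 2 for Sox8 and 0 for Sox5. In culture 2, where 6 markers could be split, it was so for 3 markers for Sox6, 4 for Sox9, 0 for Sox8 and 1 for Sox5. The level was lower with a marker, with intervals apart, for none of these markers in any member. Neither these counts nor those for the other marker lists were made over all genes, so no background share is given. Fewer UMIs also give relatively wider intervals. Over all cells of culture 1, Sox9 had 12762 UMIs, Sox6 4537, Sox5 2859.5 and Sox8 2485.5, so the members were not counted on equal terms. Pdgfra is given as an example. In culture 1, Sox6 was detected in 71.8% of 110 cells with Pdgfra (62.4% to 80.0%) and in 34.5% of 1139 cells without (31.7% to 37.3%), all within the depth window. In culture 2 the shares were 50.0% of 18 cells (26.0% to 74.0%) and 25.4% of 2417 (23.6% to 27.1%). The level of Sox9 was 2.49 UMIs per 10,000 (2.26 to 2.73) with Pdgfra and 0.999 (0.954 to 1.05) without in culture 1, and 1.09 (0.740 to 1.56) and 0.440 (0.419 to 0.461) in culture 2. Sox5 was detected in 29.1% and 29.2% of the same cells in culture 1. Sox8 was at 0.427 UMIs per 10,000 (0.286 to 0.614) in 43 cells of culture 1 with Sox10 and at 0.232 (0.211 to 0.254) without, and only 6 cells of culture 2 had Sox10 at this depth. In culture 2 the intervals with and without the marker overlapped for Bcas1 and Olig2 for Sox9, and for Bcas1, Olig2 and Cspg4 for Sox6. With Cspg4, Sox6 was at 0.235 (0.194 to 0.283), and without it at 0.197 (0.183 to 0.213). For Sox5, Bcas1 was the only marker with intervals apart. Sox9 was at 0.444 UMIs per 10,000 in 106 cells with Bcas1 and at 0.444 in 2329 without, while Sox5 was detected in 39.6% (30.3% to 49.6%) and 23.2% (21.5% to 25%). With Olig2, Sox9 was at 0.448 (0.426 to 0.471), and without it at 0.394 (0.322 to 0.476).

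Cells with Dcx, a marker of young neurons, were also rich in both genes. Sox6 was at 1.03 UMIs per 10,000 (0.856 to 1.24) in 73 cells with Dcx in culture 1 and at 0.366 (0.339 to 0.394) without, and at 0.508 (0.303 to 0.797) in 23 cells and 0.199 (0.185 to 0.214) in culture 2. Sox9 was at 2.18 (1.92 to 2.46) and 1.07 (1.02 to 1.11) in culture 1, and at 1.36 (1.01 to 1.79) and 0.436 (0.415 to 0.457) in culture 2. Sox5 was the exception in culture 1, at 0.131 (0.0735 to 0.217) with Dcx and 0.25 (0.228 to 0.274) without, while its intervals overlapped in culture 2. Gad1 differed from Dcx in that the intervals with and without it overlapped for Sox6 and Sox9 in both cultures, and in culture 2 Sox9 was at 0.311 (0.134 to 0.613) in 16 cells with it and 0.445 (0.424 to 0.467) without. Cells without Slc1a3 were richer in Sox6 in culture 1, at 0.969 (0.817 to 1.14) in 95 cells against 0.359 (0.333 to 0.388) in 1154 cells with it. In culture 2 the values were 0.258 (0.193 to 0.338) and 0.199 (0.185 to 0.214), with overlapping intervals. Slc1a3 is 1 of 6 radial glia markers that could be split. Sox6 was lower with 3 of the 6 in culture 1 and with 0 in culture 2, with intervals apart. Sox9 was lower with 2 of the 6 in culture 1, and lower with 1 and higher with 1 in culture 2.

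Sox6 levels of the cultures met in cells with 3 or 4 astroglial markers. With 3 of 5 astroglial markers detected, Sox6 was at 0.231 UMIs per 10,000 (0.191 to 0.277) in culture 1 and 0.216 (0.181 to 0.256) in culture 2, with 4 at 0.184 (0.130 to 0.251) and 0.182 (0.118 to 0.269), and with 0 at 0.747 (0.611 to 0.903) and 0.214 (0.132 to 0.327). Among single astroglial markers in culture 1, Sox6 was lower with 4 of 5 and higher with S100b (0.528 against 0.384), with intervals apart, while in culture 2 the intervals overlapped for all 5. Sox9 did not meet. With 3 markers it was at 0.897 (0.817 to 0.983) and 0.469 (0.416 to 0.527), and with 0 at 2.02 (1.79 to 2.27) and 0.744 (0.583 to 0.935). Sox9 was lower with 4 of the 5 single markers in culture 1 and with 1 in culture 2, with intervals apart. The marker in culture 2 was Id3. Sox9 was at 0.980 with Id3 and 1.48 without in culture 1, and at 0.429 and 0.682 in culture 2.

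Marker detection also differed between the cultures at matched depth, and not in one direction. In the depth window, 6 of 7 oligodendrocyte progenitor markers were detected in a higher share of cells in culture 1, among them Pdgfra (8.81% and 0.739%) and Lhfpl3 (38.8% and 21.97%), while Cspg4 was lower (9.53% and 12.6%). Of the astroglial markers, whose correlations with Sox6 were mostly negative, 4 of 5 were higher in culture 1, such as Gja1 (29.1% and 15.5%) and Apoe (66.1% and 39.2%), and Id3 was lower (70.0% and 94.0%). All 3 neuronal markers were higher, and 1 of 8 radial glia markers. The same count was not made over all genes. The median of 9521 genes was itself at an implied fold of 1.10 in favour of culture 1 in this window, so the direction alone does not set these markers apart. Within the depth window, the cells without Pdgfra still differed between cultures, at 0.999 and 0.440 UMIs per 10,000 for Sox9 and 0.359 (0.332 to 0.387) and 0.198 (0.184 to 0.212) for Sox6. With 1 oligodendrocyte progenitor marker, the cultures were apart for Sox9 (0.851 and 0.407) and closer for Sox6 (0.219 and 0.183, with overlapping intervals). How much of the difference between the cultures goes with their cell make-up was not tested.

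**Figure D5:**
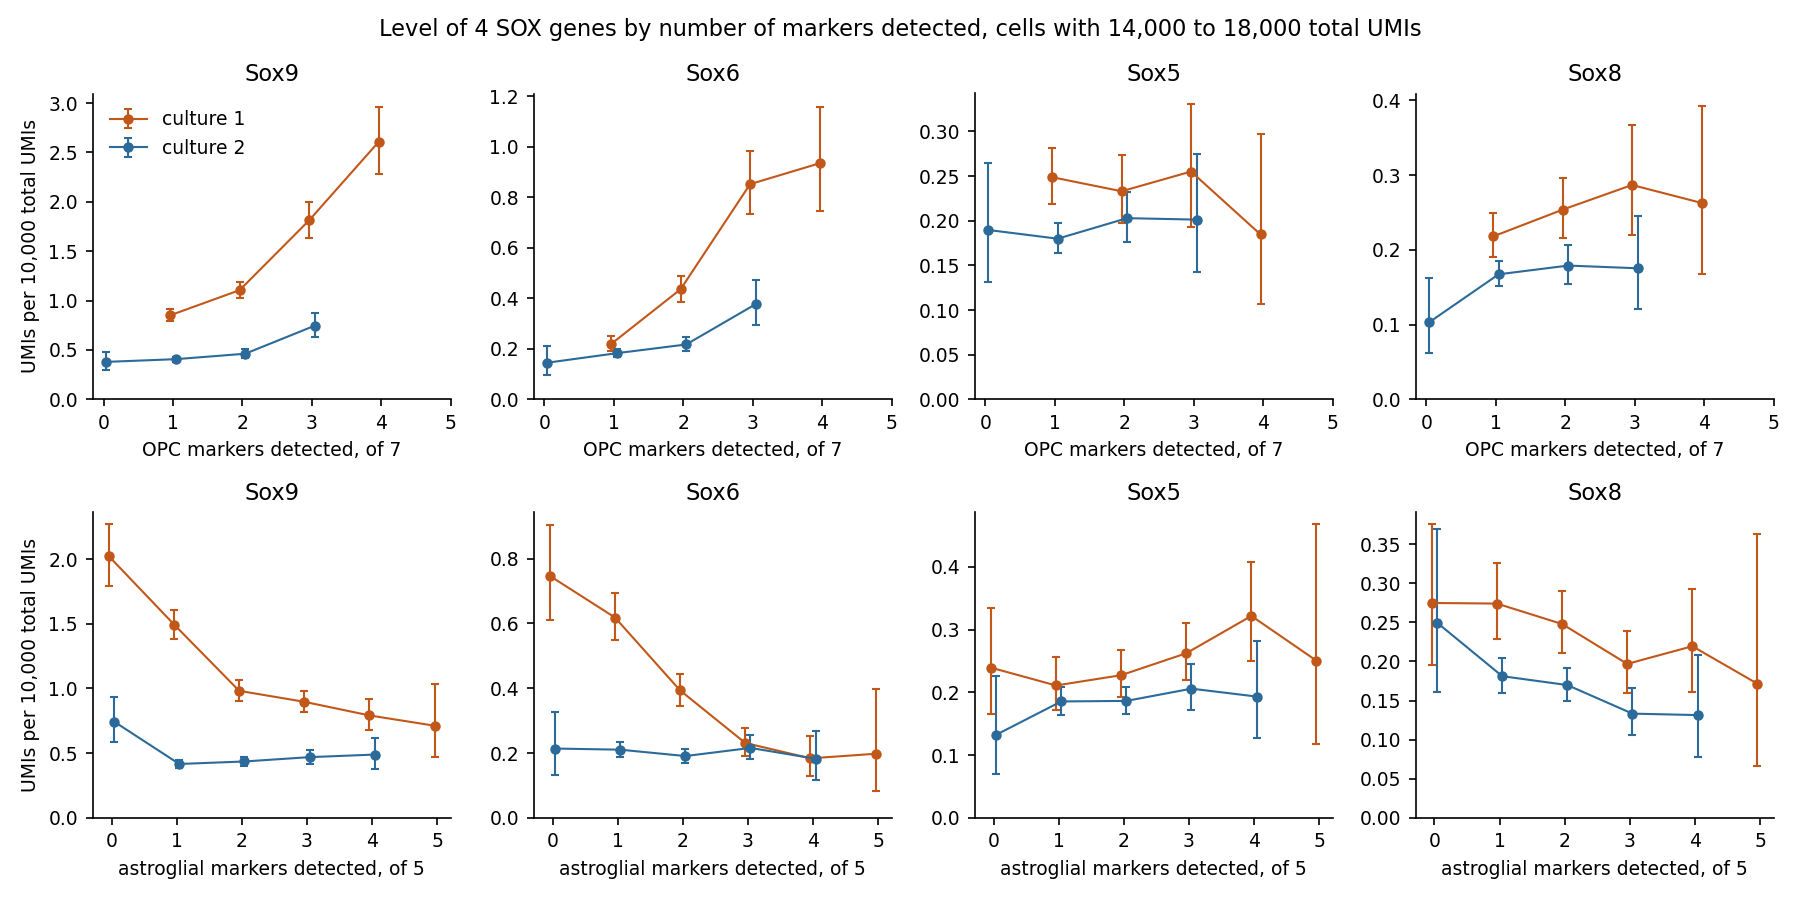
UMIs per 10,000 total UMIs of Sox9, Sox6, Sox5 and Sox8 (columns) against the number of oligodendrocyte progenitor (OPC) markers (top row, of 7) or astroglial markers (bottom row, of 5) detected in a cell, for cells with 14,000 to 18,000 total UMIs in culture 1 (orange) and culture 2 (blue). Points need at least 20 cells, error bars are exact 95% Poisson intervals, and Sox9 and Sox6 of culture 1 are higher where more OPC markers were detected, at 0.851 and 0.219 with 1 marker and 2.61 and 0.934 with 4.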

How the data were processed

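Single-cell RNA-seq of 2 replicate neurosphere cultures was read from the authors' expression table and per-cell table. The authors quantified spliced counts with Alevin (Salmon 1.3.0, GRCm38), removed cells that were outliers in depth, mitochondrial share or doublet score, removed mitochondrial and rarely expressed genes, and normalized for the depth of each cell. The labels also name Seurat 3.2.2, and the labels and the methods name different versions of the Chromium kit. The deposited expression values are a signal on a linear scale. Total UMIs per cell are estimated counts, and the cell-cycle position and stages are other values deposited by the authors. No further filter or doublet caller was applied.

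A factor for each cell was taken from genes detected in a low share of cells. UMIs of a gene were recovered as the value less a fitted offset, over factor and step, rounded to 0.5. Because the steps differ between cultures, this was added after the values were seen, and so were the thinning, marker counts and position bins. R² used 2 harmonics, and correlations used residuals of log2(value + 1) on log2 total UMIs, its square and 2 harmonics. Genes were called where both cultures passed (R² 0.05, r 0.1). Periodic loess (R 4.3.3, spans as shares of tripled data) read positions of maxima. Other steps used Python 3.11.15, numpy 2.4.6, scipy 1.17.1 and pandas 2.3.3. Scripts were tested on simulated data.

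Named genes are the members, other SOX genes of the table, the 3 genes most like each member, cell type markers, and SOX partners and targets. The members and lists were chosen with earlier results of these data known. Symbols matched 10662 of 10666 genes. Annotation is GENCODE vM21, where the authors used another release. Alternatives were other thresholds, scales, smoothers, adjustments, depth windows and each culture left out. The design has 1 condition, so no test between groups was possible.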

Additional observations from a re-analysis of the deposited data

How the results depend on the processing

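The count of members varying with cell-cycle position was 0 under all 13 alternatives, each culture alone included. The count of co-expressed pairs, 0 of 6, became 1 with a threshold of 0.05, 1 without adjustment and 1 on linear values, and it ran from 0 to 1 with each culture left out. The pair was Sox6 and Sox9 each time, and it was called by culture 1 alone and not by culture 2 alone. Its r ran from 0.0935 to 0.214 over the alternatives. Recovered UMIs in place of deposited values, added after the data were seen, gave 0 members and 0 pairs. No paired analysis was possible because there is a single group. Positions of maxima depended on the smoother. They moved by more than the SD between cultures in 13 of 20 alternatives, for Sox9 from 0.06π to 0.80π and for Sox6 from 0.05π to 0.585π, so the report gives levels in bins of position and no smoothed maximum as a result. Moves beyond that SD occurred in 7 of 60 alternatives for correlations, 8 of 40 for R², 3 of 16 for detection and 6 of 16 for mean values. These totals include alternatives with a culture left out, whose outcome was fixed in advance. For correlations, detection and mean values, each culture lies closer to the mean of both than that SD, so no move could be seen. For R², the lower value stays or moves to the higher one, which is always beyond that SD. The counts therefore overstate how far stability was tried. Shares of cells fall with depth: thinned to 8000 UMIs, Sox9 was found in a mean of 39.0% of cells over both cultures, against 59.7% as deposited. The SD rests on 2 cultures, and intervals cover counting error only.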
